A study of Rattus norvegicus with 12 samples.

Results

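The untreated control bones of a metatarsal culture experiment are described here from their RNA alone. They are 3 of the 12 libraries of the series, chosen by the titles the submitters gave them (C1 to C3), and are called untreated pools 1, 2 and 3. Each pool held about 20 ± 2 metatarsals, the middle bones of the hind paw, taken from Sprague-Dawley rat fetuses at embryonic day 19 and cultured for 72 h in serum-free medium with the ethanol vehicle and neither drug. The other 9 libraries came from the same kind of bones, with 3 pools each for dexamethasone at 1 µM, LiCl at 10 mM and the combination. They serve here only to show which differences between untreated pools recur under the same replicate number, and no treatment is compared. The labels do not say what a replicate number stands for. The study's methods describe successive experiments, each with freshly dissected bones dealt at random to the groups, and a legend speaks of each pool as that of a single rat, but neither ties the numbers in the titles to an experiment or an animal. The p-values below test the replicate number in the 9 treated libraries, and the spread between the 3 untreated pools has no test of its own. No cells were sorted, so every value is an average over all tissues that stayed on the bone. Fewer cells of a type and less RNA per cell cannot be told apart in such bulk samples.

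The fetal metatarsal is a cartilage rod that grows by endochondral ossification. Resting chondrocytes near the ends feed columns of flat dividing cells, which leave the cycle, become prehypertrophic and then hypertrophic, and mineralise their matrix at the middle of the shaft. Around the rod lies the perichondrium, which turns into the first bone collar beside the hypertrophic cells, and through which vessels and matrix-resorbing cells later enter. Indian hedgehog from prehypertrophic cells and parathyroid hormone-related protein from resting cells set the pace of this sequence.

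RNA was sequenced from polyadenylated transcripts, and the deposited values are counts per gene symbol. The 3 untreated pools held 21953446, 10761816 and 20069564 counts in that order, so that pool 2 was about as deep as the shallower treated pools (the series ranged from 9055581 to 21953446). Levels are given in CPM, the counts of a gene per 1000000 counts of its library. A count of 3 corresponds to 0.137, 0.279 and 0.149 CPM in pools 1, 2 and 3, and lower values are not told from 0. CPM is not corrected for transcript length, because no transcript lengths were at hand, so a rank below is a rank of counts and not of molecules.

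The 3 rows below, named for microRNA hairpins, held the most counts among the 432 such rows, and their mature arms are shown because 1 of them, miR-140, is a known regulator of chondrocytes. They were chosen after the counts were seen. Capitals mark the seed (bases 2 to 8), and sequences and positions are those of RefSeq on GRCr8.
rno-miR-140-5p (chromosome 19, 52375314 to 52375335, plus strand): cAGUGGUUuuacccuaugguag
rno-miR-140-3p (chromosome 19, 52375353 to 52375373, plus strand): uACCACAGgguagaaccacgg
rno-miR-199a-5p (chromosome 13, 77116255 to 77116277, plus strand): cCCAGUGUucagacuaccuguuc
rno-miR-199a-3p (chromosome 13, 77116294 to 77116315, plus strand): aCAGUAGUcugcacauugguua
rno-miR-770-5p (chromosome 6, 134298094 to 134298115, plus strand): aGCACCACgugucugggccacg
The 6 arms of these hairpins share no seed, counting the 3p arm of miR-770, gUGGGCCUgacguggag. Libraries of polyadenylated RNA do not capture mature arms, so the counts belong to longer transcripts that cover the hairpin. Mir140 had 4.60, 3.81 and 6.23 CPM in pools 1, 2 and 3. Mir199a2 had 9.84, 5.02 and 8.17 CPM, and Mir770 had 14.8, 8.73 and 16.2 CPM. All 3 rows were lowest in pool 2. Of the 432 hairpin rows, 134 had a count in any untreated pool and 10 reached 1 CPM in every pool.

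The untreated transcriptome was led by the matrix of cartilage. Col2a1, the major fibrillar collagen of cartilage, took 4.31%, 5.37% and 4.75% of all counts in pools 1, 2 and 3. Its level was 43056, 53687 and 47479 CPM (48074 ± 5340.3, SD, n = 3 pools), and in each pool it exceeded the highest value of any other gene. Col11a1, a minor fibrillar collagen that starts cartilage fibrils, followed at 16409.7, 16591 and 18664 CPM. Next came H19, a long noncoding RNA of fetal tissues, at 15968, 17149 and 17655 CPM. Col1a1, the main collagen of bone and fibrous tissue, stood at 17425, 17685.5 and 13507 CPM and was lower in pool 3 than in the other pools.

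Most of the other leading genes also encode matrix proteins. The 3 chains of collagen IX, which coats cartilage fibrils, were among the 10 genes with the most counts: Col9a1 had a mean of 10696 ± 938 CPM, Col9a2 of 7903 ± 936 CPM and Col9a3 of 6231 ± 689 CPM (SD, n = 3 pools). The 10 leading genes also held Igf2, a fetal growth factor, at 9204, 10715 and 9321 CPM, the collagen Col11a2, and Acan, the large aggregating proteoglycan of cartilage, at 5835, 5548 and 6902 CPM. Below them, Hapln1, the link protein that fastens aggrecan to hyaluronan, had 4618 ± 271 CPM and the collagen chaperone Serpinh1 had 4256 ± 422 CPM. Sparc, a matrix protein of bone, had 4245 ± 384 CPM. Col10a1, the collagen that only hypertrophic chondrocytes make in quantity, held rank 21 with 2435, 2877 and 2584 CPM. The remaining genes of the first 25 were Col3a1, Fn1, Comp, Nedd4, Col12a1, Col27a1, Matn1, Col5a1, Eef2, RGD1566401 (Meg3 in RefSeq) and Bgn. Across these 25 genes the coefficient of variation between pools ran from 5.11% (H19) to 24.0% (RGD1566401), with a median of 9.91%.

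**Figure D1:**
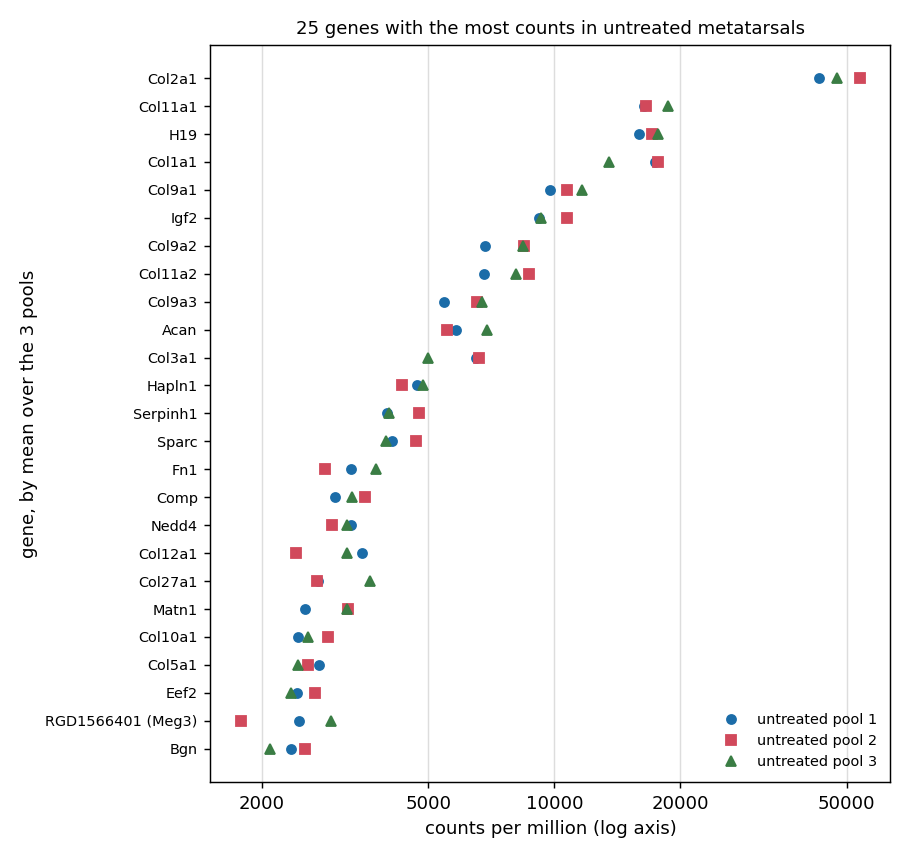
CPM (log axis) of the 25 genes with the most counts, ordered by the mean of the 3 untreated pools, with 1 symbol per pool. Col2a1 stands alone at 43056 to 53687 CPM, and for RGD1566401 (Meg3) and Col12a1 pool 2 lies visibly below the other pools.

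A few genes took much of the sequencing. The 10 leading genes held 13.8%, 15.7% and 14.8% of the counts in pools 1, 2 and 3, and the 100 leading genes held 27.1%, 29.3% and 28.5%. By mean level, 65 genes were at 1000 CPM or more and held 25.4% of the counts, 2026 genes lay between 100 and 1000 CPM with 42.7%, and 7721 genes lay between 10 and 100 CPM with 29.9%. Another 4332 genes lay between 1 and 10 CPM with 1.81% of the counts. Of the 30045 symbols listed, 13575 (45.2%) had at least 1 CPM in every untreated pool, which is what "present" means below, and 8525 had no count in any of them. Present genes had a median of 26.1 CPM. The 45 rows named for collagen chains, a family picked after the ranking was seen, included 39 present genes, 12 of the first 25 and 18 of the first 100, and together held 13.6%, 15.1% and 14.3% of the counts. Ribosomal proteins held 1.17%, 1.44% and 1.07% in 75 rows, none of them in the first 25. The limit given below for Rps6 may apply to this share too.

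Some symbols carry too few counts to be read as levels. Gapdh, an enzyme of glycolysis in every cell, stood at 15.1, 22.1 and 16.6 CPM. Ppia, the cyclophilin A gene, stood at 9.43, 12 and 10.8 CPM. Rps6, a protein of the small ribosomal subunit, stood at 19.3, 20.2 and 15.3 CPM. These genes have many near-identical copies in the genome, and reads that fit several copies may have been lost or split in counting, which was not tested. In addition, 266 symbols had a second row, and 90 of these rows had at least 1 CPM. The chain partner of Col1a1, Col1a2, stood at 278, 219 and 225 CPM with another 224, 193.6 and 202 CPM in its second row, and for the receptor Notch2 the first row was at 0 while the second held 248, 147 and 243 CPM. Values of Col1a2, Notch2, Aspn, Ogn and Tcf7l2 are therefore uncertain.

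The genes listed for each zone of the growth plate were all present in the untreated pools. Some stand in other lists too, such as Sp7, Alpl and Ibsp in the osteoblast list. Their presence in bulk RNA therefore does not show that each zone was there. Of 17 cartilage genes, all were present, and their sum was 108761, 126267 and 124194 CPM. Sox9, the transcription factor that makes cells cartilage, had 329, 336 and 399.6 CPM, and its partners Sox5 and Sox6 had 234, 177 and 262 CPM and 159, 71.7 and 156 CPM. Both partners were lowest in pool 2, and for Sox6 the values of pools 1 and 3 lay close together. The angiogenesis inhibitor of cartilage Cnmd (listed as Lect1) had 1843, 2316 and 2179.8 CPM, and Matn3, a matrilin of growth plate cartilage, had 1120.3, 1224 and 1199.6 CPM.

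All 5 resting zone genes were present, with a sum of 624, 768 and 668 CPM. Most of that sum was Ucma, a secreted protein of resting and upper columnar cartilage, at 409, 521 and 429.9 CPM. Pthlh, which encodes parathyroid hormone-related protein, was low at 5.33, 7.53 and 7.13 CPM. Sfrp5, a secreted Wnt antagonist, had 39.1, 48.0 and 60.4 CPM. In the columnar zone list all 5 genes were present. Fgfr3, the receptor that slows chondrocyte division, had 549, 574 and 639 CPM, and Papss2, which supplies the sulfate donor for proteoglycans, had 623, 593 and 679.9 CPM. The 3 pools overlapped closely for both genes.

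Prehypertrophic and hypertrophic genes were all present as well. Ihh, the hedgehog ligand of prehypertrophic cells, had 113, 140.5 and 120.4 CPM, and Pth1r, the receptor for parathyroid hormone-related protein, had 393, 359.6 and 394 CPM. Alpl, the phosphatase needed for mineralisation, had 475, 483 and 411 CPM, and the channel gene Panx3 had 254, 205 and 226 CPM. The terminal list, written for the cells beside the vascular front, had all 4 genes present. Mmp13, the collagenase of the last hypertrophic cells, had 45.1, 40.3 and 45.6 CPM, and Spp1, the matrix protein osteopontin, had 97.2, 78.0 and 64.0 CPM. Ibsp, bone sialoprotein, which osteoblasts also make, had 622, 461 and 482 CPM. All 20 cell cycle genes were present, among them Mki67 at 276, 153 and 236 CPM, Top2a at 274, 217 and 261 CPM and the replication helicase subunit Mcm2 at 144, 138 and 134 CPM. Mki67 was lowest in pool 2 whereas Mcm2 and Mcm7 (86.6, 85.7 and 83.3 CPM) differed little between pools.

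**Figure D2:**
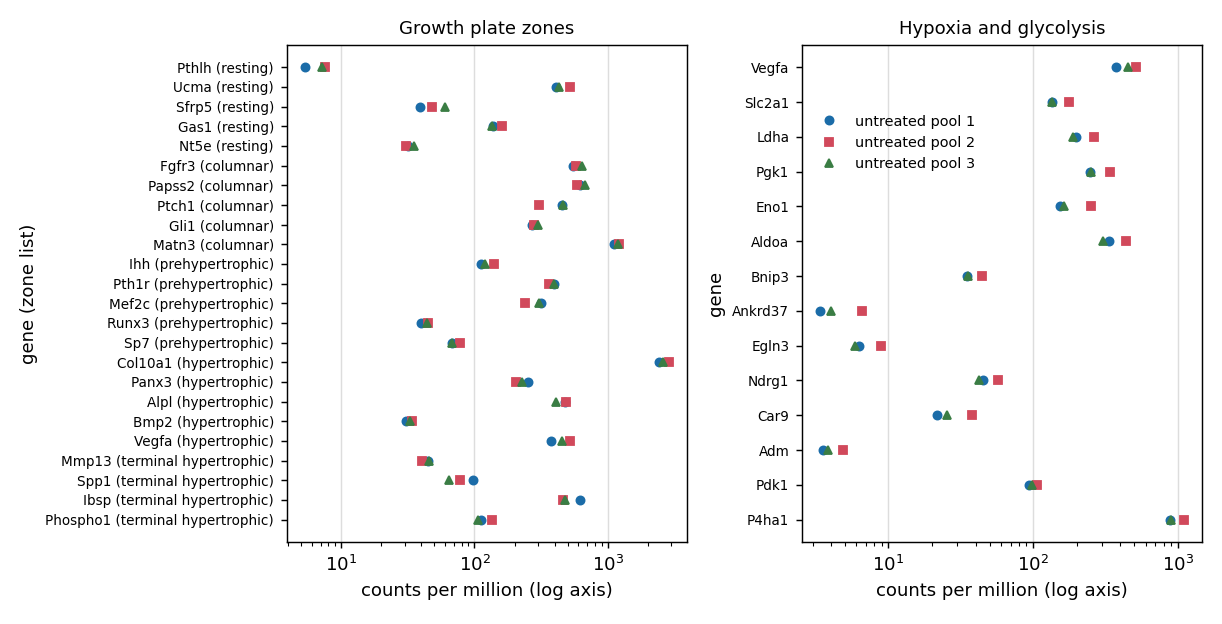
CPM (log axis) in the 3 untreated pools, 1 symbol per pool, for the genes of the 5 growth plate zone lists (left) and for the hypoxia and glycolysis list (right). The zone genes span from 5.33 CPM for Pthlh to 2877 CPM for Col10a1 with the pools mostly close together, and each of the 14 hypoxia and glycolysis genes has its highest value in pool 2.

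The tissue around the cartilage gave the next largest sums. The perichondrium and fibroblast list summed to 35236, 33991 and 28451 CPM with all 15 genes present, and the osteoblast list to 24045, 24602 and 19759 CPM with all 12 present. Col1a1, which stands in both lists, is the largest part of each sum. Among more specific genes, the perichondrial matrix protein Postn had 709, 617 and 447 CPM, and the limb mesenchyme factor Prrx1 had 123, 90.1 and 99.9 CPM. Sp7, the transcription factor of osteoblasts that prehypertrophic cells share, had 68.0, 78.1 and 68.2 CPM, and Ifitm5, found mainly in osteoblasts, had 41.2, 37.9 and 39.0 CPM. Bglap (osteocalcin), a marker of mature bone, had 2.41, 2.32 and 2.44 CPM. In the osteocyte list 1 of 4 genes was present, Dmp1 at 16.0, 4.0 and 7.77 CPM, while the phosphate hormone Fgf23 was at 0 in all pools.

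All 6 joint genes and all 6 tendon genes were present. Gdf5, the growth factor of the joint interzone, had 20.0, 16.5 and 20.4 CPM, and Prg4, the lubricin of articular surfaces, had 6.06, 3.62 and 2.19 CPM. The transcription factor Erg had 63.0, 65.0 and 69.9 CPM, and the matrix protein Cilp had 47.1, 44 and 41.1 CPM. The tendon factor Scx had 10.9, 11.6 and 8.92 CPM, and Tnmd, a membrane protein of tendon, had 9.79, 11.3 and 5.08 CPM. The tendon list sum of 1681, 1819 and 1614 CPM is nearly all Fmod, a small proteoglycan that cartilage makes too.

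Genes listed for vessel and blood-derived cells were present in part. Of 14 endothelial genes, 13 were present, with Cdh5, the cadherin of endothelial junctions, at 57.6, 54.5 and 54.2 CPM and Pecam1 at 27.9, 41.7 and 29.1 CPM. Of 10 pericyte and smooth muscle genes 9 were present, with Rgs5, a signaling regulator of pericytes, at 7.11, 6.88 and 6.33 CPM. Most of that list's sum was Cspg4 (796, 787 and 974 CPM), a proteoglycan that chondrocytes make too. The protease Ctsk and the phosphatase Acp5, which define the osteoclast list, had 107, 109 and 92.7 CPM and 17.1, 19.6 and 19.2 CPM. The calcitonin receptor Calcr stayed at or below the value of 3 counts in every pool the fusion gene Dcstamp was at 0 and the receptor gene Oscar had 1.18, 0.929 and 0.897 CPM, while the other 6 of 9 listed osteoclast genes were present. Of 14 macrophage genes, 13 were present and the list summed to 191, 146 and 124 CPM, highest in pool 1. Csf1r, the receptor that macrophages and osteoclast precursors need, had 30.0, 19.6 and 20.3 CPM, and the complement gene C1qa had 21.9, 18.4 and 13.9 CPM. Of 10 red cell genes 4 (40%) were present, near the 45.2% of all symbols, with 1 of the 2 defining genes. Most of their counts were globins (Hba1 at 121, 108 and 109.6 CPM, Hbb at 37.7, 36.4 and 42.1 CPM).

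Of the platelet lineage, the chemokine gene Pf4 had 5.60, 4.92 and 3.44 CPM and the integrin gene Itga2b had 1.96, 1.95 and 2.04 CPM, so both defining genes of the megakaryocyte list were present. None of the listed genes of mast cells (5), neutrophils (7), T and NK cells (6) or B cells (5) was present, and their sums lay between 0.0498 and 1.84 CPM. Of their defining genes, Cd3e, Cd79a, S100a9 and Fcer1a had no count in any untreated pool. Some members lay above 3 counts in every pool all the same: the neutrophil enzyme gene Mpo had 9, 8 and 11 counts, the receptor gene Csf3r had 13, 6 and 9, and the T cell kinase gene Lck had 17, 11 and 29. The 6 genes of muscle precursors were likewise below 1 CPM in at least 1 pool each, and Pax7 was at 0 in all. Of 16 skeletal muscle genes 7 were present, but none of the 3 defining ones: Acta1 had 1.28, 0.650 and 0.349 CPM. Of 11 skin genes 2 were present, Krt10 (11.8, 15.0 and 16.1 CPM) and Krt15, but none of the 3 defining ones. Krt5 and Krt14, the keratins of basal epidermis, were at 0 in every pool. Fat cell genes were low (Adipoq, which encodes adiponectin, had 5.06, 6.88 and 2.39 CPM). Present genes numbered 7 of 9 in the adipocyte list, 4 of 7 in the Schwann cell list, 3 of 7 in the neuron list, 2 of 5 in the megakaryocyte list, and 1 each in the melanocyte (of 5) and liver (of 7) lists. Of all symbols listed, 45.2% were present, so shares near that do not set a list apart. In all, 18 of 30 zone and cell type lists had every defining gene present and 8 had none.

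**Figure D3:**
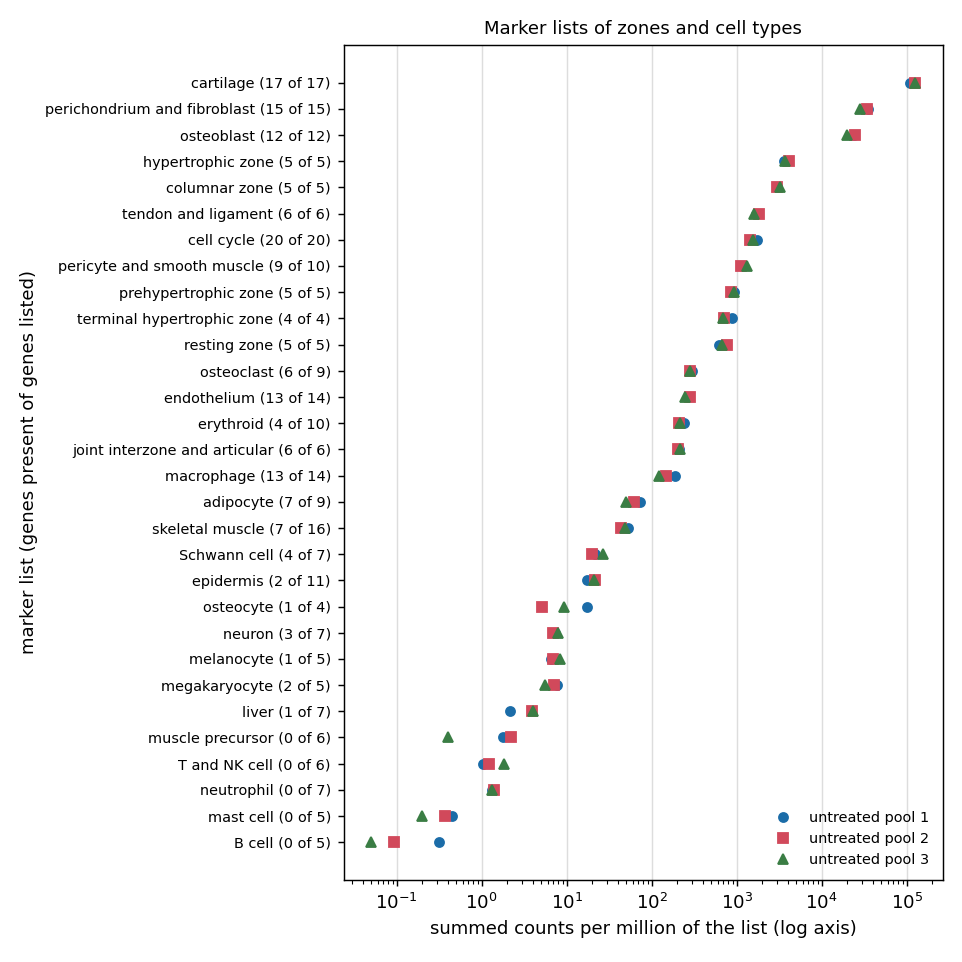
Summed CPM (log axis) of 30 marker lists in the 3 untreated pools, 1 symbol per pool, with the number of genes present of those listed. Cartilage leads at 108761 to 126267 CPM, the growth plate zones lie between 624 and 4116 CPM, and 5 lists with no gene present stay at or below 2.23 CPM.

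Of 18 genes of limb position 17 had a row and 9 were present, the defining hindlimb genes Tbx4 and Pitx1 among them. That share of 52.9% is near the 45.2% of all symbols. Tbx4, the T-box factor of the hindlimb, had 194, 178 and 196 CPM and Pitx1, its upstream factor, 38.4, 47.4 and 43.2 CPM, whereas the forelimb factor Tbx5 had 1.41, 0.836 and 1.84 CPM. Hoxd13, expressed in the hand and foot, had 127, 141 and 118 CPM. The listed genes of the Hoxa and Hoxc clusters were not present. Hoxa9, Hoxa11 and Hoxc9 were at 0, and Hoxa10, Hoxc10 and Hoxc11 had at most 4 counts in any pool. Hoxa13, also a defining gene, had no row. Whether counting by symbol lowered these rows was not tested, so they are not read as levels in the bones. Each pool held transcripts of both sexes. Xist, the RNA that coats the inactive X chromosome (listed as LOC100911498), had 371, 1144 and 678 CPM, and the Y-linked Kdm5d had 59.2, 23.7 and 46.6 CPM and Eif2s3y 47.8, 29.1 and 41.3 CPM. The Y-linked Ddx3y had few counts, 0.729, 1.86 and 0.747 CPM. Pool 2 had the most Xist and the least Kdm5d and Eif2s3y, but the most Ddx3y. What part the sex of the bones had in other differences between pools was not tested.

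Signaling genes of the growth plate were present nearly throughout: 11 of 11 of the hedgehog loop, 9 of 9 of the FGF list, 19 of 19 of the BMP and TGF beta list, 12 of 13 of the growth hormone, IGF and CNP list and 23 of 25 of the Wnt list. Ptch1, the hedgehog receptor and a target of the pathway, had 451, 303 and 462 CPM, and Gli1, another target, had 271, 281 and 301 CPM, so pool 2 was low for one and not the other. Gli3, the main repressor, had 138, 64.5 and 134 CPM. Npr2, the receptor for C-type natriuretic peptide, had 169, 178 and 191 CPM, while its ligand Nppc stayed at 0.729, 0.650 and 0.648 CPM. Igf1r had 294, 240.4 and 367 CPM. The Wnt antagonist Dkk1 was at 0 in all pools, and the decoy receptor Frzb had 218, 256 and 278 CPM.

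The known targets of both drugs were present in these pools, which received neither drug. Nr3c1, the glucocorticoid receptor, had 139, 116 and 130.2 CPM, and its co-chaperone Fkbp5 had 32.9, 34.2 and 31.2 CPM. Hsd11b1 and Hsd11b2, the enzymes that activate and inactivate glucocorticoids, were low at 3.10, 1.12 and 0.897 CPM and at 3.55, 2.79 and 3.19 CPM. Hsd11b1 was below 1 CPM in pool 3 and thus not present by the rule used here. Gsk3b and Gsk3a, the kinases that lithium inhibits, had 133, 109 and 124 CPM and 98.6, 116 and 99.6 CPM. Ctnnb1, which encodes β-catenin, held rank 78 with 861, 846 and 818 CPM, and the Wnt target Axin2 had 21.5, 20.9 and 21.5 CPM. These genes differed little between the pools, apart from Hsd11b1.

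The 3 pools agreed in their ranking, with pool 2 somewhat apart. Across the 12161 genes that reached 60 counts in 2 or more untreated pools, the correlation of log2(CPM + 1) was 0.993 between pools 1 and 3, 0.983 between pools 1 and 2 and 0.982 between pools 2 and 3. These are correlations across genes, which are not independent, and are given as a description. The sets of 25 leading genes shared 23 genes in all 3 pools, and the sets of 100 shared 85. The counts differed by more than sampling noise in every pair (chi-square per degree of freedom 21 for pools 1 and 2, 11.8 for 1 and 3, and 21.3 for 2 and 3), so no pair was taken for repeat deposits of 1 library. After TMM scaling the median absolute log2 difference was 0.11 between pools 1 and 3, 0.19 between 1 and 2 and 0.20 between 2 and 3. The biological coefficient of variation, edgeR's estimate of the spread beyond counting error, was 12.3%, and 7.69% without pool 2. It was 10.7%, 7.38% and 8.43% in the dexamethasone, LiCl and combined groups, each also of 3 pools.

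Genes that lay over 2-fold apart between untreated pools were 306 of 12161 (2.52%), and 29 without pool 2, 97 without pool 1 and 104 without pool 3. By plain CPM they were 308, and in 258 of them pool 2 was the lowest. Pool 2 was below both other pools by over 1.5-fold for 527 genes, against 14 genes for pool 1 and 47 for pool 3. Pools 1 and 3 are deeper and reach the count filter at a lower CPM than pool 2. Genes low in pool 2 thus pass it more readily than genes low in pool 1 or 3. After thinning to the smallest untreated library, 208 of 11116 genes (1.87%) were over 2-fold apart. The counts by pool were not repeated after thinning, so what part depth has in them is not known. Peg3, an imprinted zinc finger gene (listed as LOC103691034), had 139, 25.4 and 91.3 CPM. Tet1, which oxidises methylated cytosine, had 33.9, 8.08 and 17.8 CPM, and the giant muscle protein gene Neb had 11.3, 2.42 and 5.08 CPM. Among list members, pool 2 was also lowest for Sox6, Gli3 and Hhip, the hedgehog-binding inhibitor (58.9, 23.0 and 50.2 CPM). Immediate early genes respond within minutes to stimuli and handling. Of the 11 present among 12 listed, 7 were highest in pool 1, among them Egr1 (82.0, 32.1 and 42.9 CPM) and Fos (13.8, 5.30 and 6.73 CPM). Another 4 were highest in pool 2, among them Ier3 (6.38, 10.6 and 6.33 CPM). Of the 12161 genes, 32.3% were highest in pool 1 and 41.6% in pool 2.

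The deviation of pool 2 followed the genomic span of the gene, that is the distance from the first to the last base of the RefSeq gene, introns included. A span was known for 95.8% of the 12161 genes, which were split by span into 5 groups of about 2331 genes with median spans from 4.19 to 132 kb. The median log2 deviation of pool 2 from the mean of the untreated pools was 0.12 in the group of shortest span and -0.14 in that of longest span. The difference, longest minus shortest, was -0.26 for pool 2, 0.13 for pool 1 and 0.12 for pool 3. In the 9 treated pools it ranged from -0.0299 to 0.0548, so the 3 untreated pools all lay outside that range, pool 2 below it and pools 1 and 3, whose deviations are taken from a mean that includes pool 2, above it. RNA quality was not in the files, and its part in this pattern was not tested.

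**Figure D4:**
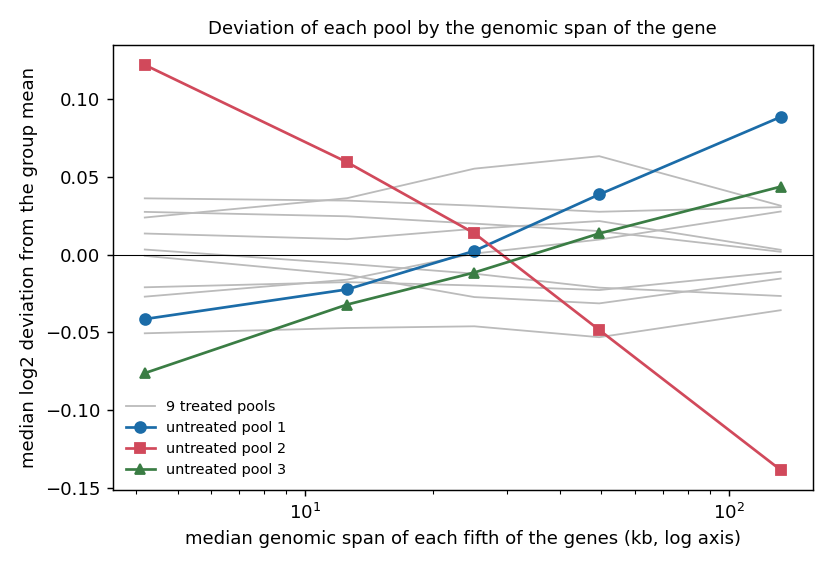
Median log2 deviation of each pool from the mean of its group (vertical axis) in 5 groups of genes by genomic span (median span in kb, log axis), with coloured lines for the untreated pools and grey lines for the 9 treated pools. Pool 2 runs from 0.12 in the group of shortest span to -0.14 in that of longest span, while the same difference in the treated pools was between -0.0299 and 0.0548.

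To ask which differences between untreated pools belong to their replicate number, the number was tested in the 9 treated libraries, which share no library with the untreated pools. With edgeR's quasi-likelihood F-test and condition as a covariate, 776 of 12299 genes (6.31%) differed between numbers at an adjusted p under 0.05. The count was sensitive to single libraries: it was 123 without the combined-treatment library of number 2, 330 without that of number 3, 461 without that of number 1, 278 without dexamethasone library 2, 375 without LiCl library 1 and 1663 without LiCl library 3. With all 12 libraries in the fit (replicate block) it was 348. Among the 306 genes over 2-fold apart between untreated pools, 287 were tested and 58 (20.2%) differed between numbers. Of 756 genes that differed between numbers and also passed the count filter in the untreated pools, 543 (71.8%) had the same direction there in the contrast that was largest in the treated libraries, compared with 56.7% of all 11962 genes tested in both.

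Most of the 10 genes with the smallest p are given with their untreated values. Stra8, a gene of germ cells entering meiosis, had 6.38 and 14.6 CPM in untreated pools 1 and 2 and no count in pool 3, at least 97.6-fold lower than pool 2 when 3 counts are taken as the limit of that library. In the treated libraries it had 3.31 to 11.6 CPM under number 1, 13.0 to 21.9 CPM under number 2 and at most 0.0484 CPM under number 3 (adjusted p = 5.58e-09, edgeR). Asb15, an adaptor of ubiquitin ligases known from muscle, showed the reverse: it had 0.228 and 0 CPM in untreated pools 1 and 2 and 17.6 CPM in pool 3. Under number 3 it had 16.5 to 19.3 CPM in the treated libraries, and under numbers 1 and 2 at most 0.298 CPM (adjusted p = 6.70e-10, edgeR). Both genes thus separated number 3 from the others in all 4 conditions without overlap.

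For 5 other genes of this group the order of the numbers in the untreated pools was that of each treated condition. Ephx2, the soluble epoxide hydrolase, had 5.51, 23.5 and 10.9 CPM in the untreated pools, and number 2 exceeded number 1 by 1.81 on the log2 scale (SE 0.14) in the treated libraries (adjusted p = 4.44e-06, edgeR). Itih3, which binds hyaluronan, had 10.0, 5.30 and 25 CPM untreated, and number 3 exceeded number 2 by 1.91 (SE 0.15, adjusted p = 4.44e-06, edgeR). Slc35c2, a Golgi transporter linked to fucosylation, had 60.8, 30.8 and 51.2 CPM untreated and 27.2 to 33.2 CPM under number 2 in the treated libraries, below all others. Inpp1, an inositol phosphatase that lithium inhibits, had 25.3, 43.8 and 30.7 CPM untreated, and number 2 exceeded number 1 by 1.11 (SE 0.11, adjusted p = 7.65e-05, edgeR). The collagen gene Col22a1 had 50.1, 40.6 and 68.1 CPM untreated, again highest in pool 3 and lowest in pool 2 as in the treated libraries. The other 3 of the 10 were LOC100912041, LOC103690985 and Cytl1, and all 10 kept an adjusted p under 0.05 and their direction in each of 15 alternative fits.

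**Figure D5:**
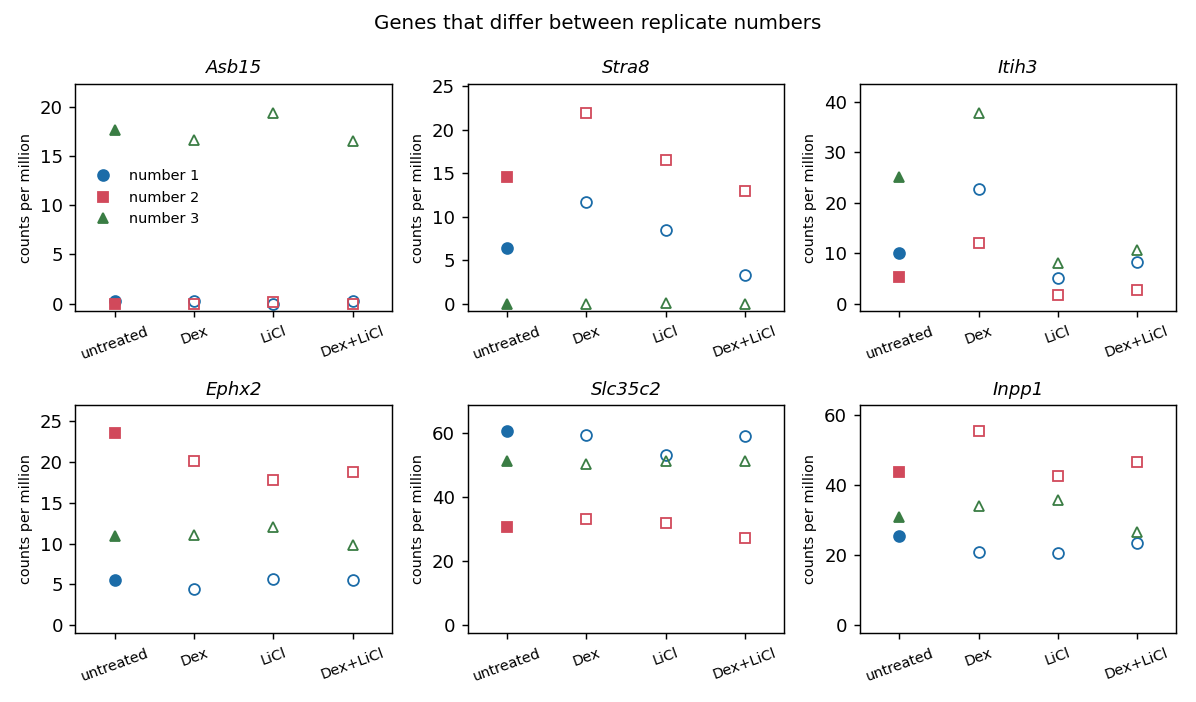
CPM in all 12 pools for 6 of the genes with the smallest p for replicate number, with filled symbols for untreated pools, open symbols for treated pools and 1 shape per number. Asb15 lies at 16.5 to 19.3 CPM in the treated pools of number 3 and at 17.6 CPM in untreated pool 3, Stra8 is at or near 0 there, and for Ephx2 the order of the numbers is the same in every condition.

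Not every difference of pool 2 recurred. Peg3, lowest in untreated pool 2, was highest under number 2 in the treated libraries, by 0.39 over number 1 on the log2 scale (SE 0.08, adjusted p = 0.00343, edgeR). Neb, highest in untreated pool 1, was higher under number 1 in the treated libraries too (adjusted p = 0.00281, edgeR), while Tet1, Sox6 and Gli3 did not pass (adjusted p = 0.142, 0.263 and 0.0754, edgeR). Egr1 was highest under number 1 in both, by 0.78 over number 2 in the treated libraries (SE 0.12, adjusted p = 0.00351, edgeR). Xist passed narrowly (adjusted p = 0.0479, edgeR), with number 2 above number 1 by 0.61 (SE 0.16), but Kdm5d did not (adjusted p = 0.103, edgeR). DESeq2 called 0 of the 3 genes tested in the sex list, Xist included. Dmp1 was lowest in pool 2 and under number 2 alike (adjusted p = 0.0456, edgeR).

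Genes of hypoxia and glycolysis had their highest values in pool 2 and under number 2. All 14 were highest in untreated pool 2, where 41.6% of all 12161 genes were highest, and their sum was 2540.4, 3365 and 2602 CPM. Ankrd37, a direct target of hypoxia-inducible factor, had 3.37, 6.6 and 3.99 CPM, Car9, the carbonic anhydrase of hypoxic cells, had 21.7, 38.0 and 25.6 CPM, and Vegfa, the vessel growth factor, had 376, 517 and 452 CPM. In the treated libraries all 14 were again highest under number 2, as were 37.5% of all genes tested. At an adjusted p under 0.05 (edgeR), 7 of the 14 differed between numbers, as did 6.31% of all genes tested. The list was written with earlier results of these data known and was not set against genes of like abundance. For Ankrd37 number 2 exceeded number 1 by 1.33 on the log2 scale (SE 0.24, adjusted p = 0.00802, edgeR) and for P4ha1, which hydroxylates collagen chains, by 0.56 (SE 0.12, adjusted p = 0.0128, edgeR). The number of calls ran from 0 to 14 over 15 alternative fits. It was 0 without the combined-treatment library 2, 1 without dexamethasone library 2, 2 without LiCl library 1 or without combined-treatment library 1, 4 without combined-treatment library 3, 11 without LiCl library 2, 12 without dexamethasone library 3 and 14 without LiCl library 3. It was 2 with the replicate block and 1 with DESeq2, whereas 13 or 14 genes were highest under number 2 in each. Of the 14 genes, 8 lie in the 2 groups of shortest span, as do 40.0% of all genes, and what part span has in these values was not tested.

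Members of the zone and cartilage lists differed between numbers too. Of 17 cartilage genes 6 did, among them Acan (5835, 5548 and 6902 CPM in the untreated pools), which in the treated libraries was higher under number 3 than under number 2 by 0.71 on the log2 scale (SE 0.11, adjusted p = 0.00211, edgeR). Ibsp, with 622, 461 and 482 CPM untreated, was lower under number 2 than under number 1 by 1.15 (SE 0.15, adjusted p = 5.54e-04, edgeR). Comp, a matrix protein of cartilage and tendon, was highest in untreated pool 2 but lowest under number 2 in the treated libraries, by 0.60 against number 1 (SE 0.09, adjusted p = 0.00128, edgeR). Of the first 25 genes by count, 8 differed between numbers, as did 22 of the first 100 and 6.31% of all genes. Abundant genes were thus called more often, and no list was set against genes of like abundance. Of 5 hypertrophic genes 3 differed between numbers. In the other lists of the growth plate the calls were 2 of 5 resting, 1 of 5 prehypertrophic, 2 of 4 terminal and 2 of 20 cell cycle genes. Of 5 columnar genes edgeR and DESeq2 each called 0, with 3 at an unadjusted p under 0.05 from edgeR.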

How the data were processed

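Per the labels and the study's methods, RNA was made into strand-specific libraries of polyadenylated transcripts. The authors' pipeline used Subread for alignment and HTSeq-count for counting, with Picard taking out duplicate reads in between, and technical replicates were pooled. The deposited values are raw counts, not normalized, with 1 row for each gene symbol, and duplicate removal can lower the most abundant genes. The submitters' notes name the human build hg19 (GRCh37) for these rat libraries, so the build behind the counts is not settled. The table of the whole series held the same counts in its 12 columns. Of 30045 symbols, 23077 were matched to RefSeq, 19073 by symbol, 1624 by gene ID and 2380 by synonym.

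CPM was computed from library totals. The spread between pools was estimated after TMM scaling from genes that reached 60 counts in 2 or more pools, with a pool under 3 counts set to 3, with edgeR 4.0.16 in R 4.3.3. Replicate number was tested in the 9 treated libraries with edgeR's quasi-likelihood F-test, condition as covariate, Benjamini-Hochberg adjustment. DESeq2 1.42.0 was an alternative. After the condition means were removed, same-numbered treated libraries had correlations of 0.161 to 0.494, and those of different number -0.475 to 0.0874. Untreated pools correlated with same-numbered LiCl, combined and dexamethasone libraries at 0.231 to 0.319, 0.144 to 0.299 and 0.0394 to 0.152. With libraries of different number the values were -0.224 to -0.0198, -0.191 to -0.00257 and -0.123 to 0.0524, so that the dexamethasone ranges overlapped. Removing the mean of 3 pools by itself lowers correlations between different numbers. The estimate of spread and the test were both run on simulated counts with independent genes and no trend with span. That run checks the code only and does not bear on the sensitivity to single libraries. The limit of 3 counts covers counting error only.

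The groups came from the titles. The gene lists, tests and naming rule were chosen with earlier results of these data known. Named genes are the 25 with most counts, each list's defining markers and up to 4 other members with the highest CPM, the 20 with the largest ratio between untreated pools, and the 10 with the smallest p for number, from which the text takes some. A ranking per coding length, also part of the rule, was not made for want of lengths. Genes outside this rule (Gapdh, Ppia, Rps6, hairpin rows, Ankrd37, Car9, Hhip, the second rows and others of the lists) were chosen after their values were seen. Figures used Python 3.11.15.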

Additional observations from a re-analysis of the deposited data

How the results depend on the processing

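The median pairwise log2 difference between untreated pools was 0.17. It ranged from 0.11 (without pool 2) to 0.19 when 1 pool was left out, and was 0.26 with no filter beyond 1 count. The biological coefficient of variation was 7.69% to 14.0% with 1 pool left out. Genes over 2-fold apart were 29 to 104 with 1 pool left out, a range that also reflects fewer pools compared. They were 846 with filterByExpr and 6206 with no filter, where low counts enter. Thinned to the smallest untreated library, they were 208 of 11116 (1.87%). The span difference of pool 2 was -0.32 among genes with a mean of at least 100 CPM, an alternative chosen after the data were seen, as were summing second rows, leaving pools out of the lists and the other settings for span. Genes that differed between replicate numbers were 348 with all 12 libraries in the fit (replicate block), 309 of them among the 776, and 1728 with no filter. They ranged from 123 to 1663 when 1 library was left out. DESeq2's likelihood ratio test called 610. The cause of these shifts was not tested.

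The 25 leading genes kept 24 or 25 members and the present genes were 13661 to 13860 when 1 pool was left out. Alternatives per coding length and without mitochondrial genes were not run, because no lengths and no mitochondrial rows were at hand. Pool 2, with 10761816 counts, limits what can be detected near 0.279 CPM. Leaving out 1 of 3 pools cannot move a mean by 1 SD, so for list sums and shares of counts that alternative says nothing about stability.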

Other observations

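Several imprinted genes, expressed from only 1 parental copy and known to regulate fetal growth, held many counts in the untreated pools. They were picked from the top of the ranking after it was seen, so that they say nothing of imprinted genes as a group, and Peg10 at rank 1462 and Peg3 (listed as LOC103691034) at rank 2498 stood far lower. H19 held rank 3 and Igf2 rank 6. Their neighbours in the list were the noncoding RNA Meg3 (RGD1566401) at rank 24, the growth inhibitor Grb10 at rank 29 with 2012, 1906 and 2019 CPM in pools 1, 2 and 3, and Igf2r, which clears IGF2, at rank 35 with 1679.7, 1414 and 1938 CPM. Cdkn1c, a cell cycle inhibitor needed in the growth plate, held rank 49 with 1193, 1450.1 and 1163 CPM. Plagl1, a zinc finger factor, held rank 55 with 1037, 1127 and 1325 CPM, and Mest rank 73 with 930.5, 905 and 885 CPM.

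The spread within this group was uneven. Grb10 varied by 3.19% between pools (coefficient of variation, n = 3 pools) and Meg3 by 24.0%, with the lowest value of Meg3 in pool 2. Dlk1, which lies in the same imprinted cluster as Meg3, was instead highest in pool 2, at 576, 787 and 516 CPM. Peg10 had 145, 81.1 and 162 CPM, lowest in pool 2 like Meg3. These values were not tested between pools.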
